A study of Homo sapiens with 12 samples.

Results

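The tripartite motif (TRIM) proteins were described from 12 Affymetrix Human Gene 1.1 ST arrays of BT549 cells, an established human triple-negative breast cancer line. A TRIM gene was taken when a transcript cluster of the array, a set of probes summarised into 1 value, carried 1 gene symbol made of TRIM and a number. This gave 54 TRIM genes of 17958 genes with 1 symbol, and each of the 9 TRIM genes with several clusters was read from its brightest one, by the mean of the 12 arrays. A further 10 TRIM genes (TRIM6, TRIM13, TRIM34, TRIM39, TRIM43, TRIM49, TRIM58, TRIM64, TRIM73 and TRIM74) were read only by clusters shared with another gene and were not analysed here. The 4 groups held 3 arrays each, all from BT549 cells grown in RPMI medium with serum and transiently transfected. The control siRNA and ERβ2 siRNA groups were collected 48 h after transfection, and the ERβ2 siRNAs were aimed at the messenger RNA of ERβ2, a splice form of estrogen receptor beta. The EV group carried the empty pcDNA3 vector and the ERβ2 plasmid group carried FLAG-tagged ERβ2 cDNA, and both were collected at 24 h. The work rests on 1 cell line, and the p-values measure the spread between these arrays.

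TRIM proteins share an N-terminal arrangement of a RING finger, B-box zinc fingers and a coiled coil, and most act as ubiquitin ligases through the RING finger. Classes C-I to C-XI are told apart by the C-terminal part, such as the SPRY domain of class C-IV, the PHD finger and bromodomain of class C-VI and the NHL repeats of class C-VII. Several members are induced by interferon and act against viruses, others are chromatin cofactors, and others bind microtubules or belong to muscle. In interferon-treated cells, transcription factors of the STAT and IRF families bind an element called the interferon-stimulated response element.

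Promoter sequences are shown for 6 genes because a match to this element was the sequence feature set beside the values. The windows came from RefSeq (build GRCh38.p14) and ran from 250 bases before to 50 bases after the start of a gene, 300 bases in all. The element was searched on both strands as GAAA followed, after any 2 bases, by GAAA, which on the other strand reads TTTC, any 2 bases, TTTC. The sequences are given 5′ to 3′ on the strand of the gene, and capitals mark the matches. The stretch of TRIM5 is chr11:5685075-5685194 (minus strand), that of TRIM14 is chr9:98119223-98119342 (minus strand) and that of TRIM69 is chr15:44736408-44736527 (plus strand). The stretch of TRIM44 is chr11:35662655-35662774 (plus strand), and like the other 3 it is the 120 bases just before the start. That of TRIM26, chr6:30213534-30213653 (minus strand), begins 247 bases and ends 128 bases before the start. That of TRIM21, chr11:4393663-4393692 (minus strand), is 30 bases from position 11 to position 40 after the start. In TRIM26 and TRIM21 the capitals hold 2 overlapping matches.
TRIM5: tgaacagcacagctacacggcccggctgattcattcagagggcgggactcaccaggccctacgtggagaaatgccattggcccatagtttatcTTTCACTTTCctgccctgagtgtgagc
TRIM14: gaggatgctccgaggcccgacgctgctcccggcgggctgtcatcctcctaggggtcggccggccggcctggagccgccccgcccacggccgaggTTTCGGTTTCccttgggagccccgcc
TRIM69: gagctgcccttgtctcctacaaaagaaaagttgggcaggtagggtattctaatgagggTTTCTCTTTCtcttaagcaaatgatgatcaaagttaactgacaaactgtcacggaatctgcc
TRIM44: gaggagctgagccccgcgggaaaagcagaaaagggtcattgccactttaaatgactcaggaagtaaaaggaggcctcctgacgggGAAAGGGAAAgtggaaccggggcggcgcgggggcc
TRIM26: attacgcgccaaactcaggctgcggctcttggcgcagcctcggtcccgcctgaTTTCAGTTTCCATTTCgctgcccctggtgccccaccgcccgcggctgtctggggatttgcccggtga
TRIM21: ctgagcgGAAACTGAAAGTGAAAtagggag

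Medians of the arrays ran from 5.04 to 5.14, and arrays correlated with the others of their own group at 0.997 to 0.999. The mesenchymal markers VIM, SPARC, FN1 and CDH2 stood at percentiles 99.6, 99.2, 98.3 and 81.6 of all gene means. S100A4, also listed as mesenchymal, stood at 45.2, and the receptor genes ESR1 and PGR at 19.8 and 10.1. FN1 and S100A4 rose by 0.42 and 0.50 after ERβ2 siRNA. With EV against control siRNA, FN1 and CDH2 were higher by 0.63 and 0.40 and S100A4 was lower, at -0.41. The receptor gene ERBB2 and the epithelial keratin KRT18 were not low, at percentiles 68.2 and 91.4. Keratins also moved between groups: KRT18 and KRT8 rose by 0.88 and 0.78 after ERβ2 siRNA, and KRT18, KRT19 and KRT8 were lower with EV than with control siRNA, by -0.89, -0.95 and -0.59. Of 6 epithelial markers, EPCAM, CDH1 and GRHL2 had group means from 3.78 to 4.08. The part of the changes of keratins and mesenchymal markers in the results below was not tested. ESR2, the gene of ERβ2, had group means of 3.99 with control siRNA, 3.97 with ERβ2 siRNA, 4.01 with EV and 4.48 with the plasmid. The change of ESR2 after ERβ2 siRNA was -0.02 (adjusted p = 0.913, limma), so the targeted gene gave no check of the siRNA labels. Its mean over the 12 arrays was low, at 4.11, and whether its probes tell ERβ2 from other splice forms is not given. By qPCR, the paper reported less ERβ2 mRNA in BT549 cells after ERβ2 siRNA.

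Of the 54 TRIM genes, 34 had a mean log2 value of at least 5 over the 12 arrays, or 63%, against 63.4% of all genes. Genes with a mean under 5 are called dim below. Levels of different genes depend on their probes, and only values of the same gene are compared below. The word rose or fell is used below where limma gave an adjusted p of 0.1 or less (Benjamini-Hochberg, over all 17958 genes). A change was called with fold when it also had a fold of at least 1.5 and an unadjusted p under 0.05. All changes are differences of log2 values, given with the standard error (SE).

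The design also sets its control transfections, EV and control siRNA, side by side. The TRIM genes listed for antiviral defence were much higher with EV, led by TRIM22, TRIM21, TRIM14 and TRIM5. In this comparison 17 TRIM genes rose (31.5%) and 11 fell (20.4%), where the background over all genes was 19.2% higher and 22.4% lower. With fold, 10 rose (18.5%, background 5.57%) and 1 fell (1.85%, background 1.3%), where 6.87% of all genes were called in either direction. The groups did not overlap for 26 TRIM genes (48.1%, background 47.2%). EV and control siRNA differ in nucleic acid, reagent and time after transfection, and these cannot be told apart. Less RNA per cell and fewer responding cells cannot be told apart in such bulk samples either.

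All 8 measured TRIM genes listed for the interferon response and antiviral defence rose with fold. Their median change was 1.41, with a range from 0.65 to 3.67, and the median over all genes was -0.06. The list was chosen with earlier results of these data known, so this count describes the list and is not a test. TRIM22, an interferon-inducible antiviral protein, had log2 values of 3.96, 4.09 and 3.91 with control siRNA and of 7.58, 7.76 and 7.63 with EV. The groups were far apart, at a difference of 3.67 (SE 0.08, 95% CI 3.50 to 3.84, 12.7-fold, adjusted p = 6.5e-09). No call of signal over background was given, and the control mean of TRIM22, 3.99, lay under the limit of 5 used for dim genes. The fold of TRIM22 is thus one of array values and may understate the change in RNA. A second TRIM22 cluster, dim at a mean of 3.18, differed by -0.06, so the rise of TRIM22 rests on the brighter cluster. TRIM21, a cytosolic Fc receptor that acts on antibody-coated virus, went from 6.07, 5.81 and 6 with control siRNA to 8.49, 8.58 and 8.49 with EV. That is a difference of 2.56 (SE 0.08, 5.9-fold, adjusted p = 9.3e-08), again without overlap.

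TRIM14, a member without a RING finger that works with the mitochondrial adaptor MAVS, had 8.44, 8.55 and 8.46 with control siRNA and 10.36, 10.35 and 10.28 with EV. Its 3.6-fold rise was 1.85 on the log2 scale (SE 0.06, adjusted p = 1.6e-07). TRIM5, which restricts retroviral capsids, had 6.11, 5.97 and 6.25 against 7.71, 7.75 and 7.67, a rise of 1.60 (SE 0.08, 3.03-fold, adjusted p = 2.2e-06). TRIM25, which ubiquitinates the RNA sensor RIG-I, was bright in both groups. Its values were 9.54, 9.49 and 9.52 with control siRNA and 10.74, 10.7 and 10.76 with EV, a rise of 1.22 (SE 0.06, 2.32-fold, adjusted p = 1.5e-06). The EV arrays of all these genes lay above every control siRNA array.

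TRIM56, a regulator of cytosolic nucleic acid sensing, had 7.02, 7.09 and 6.88 with control siRNA and 7.86, 8.01 and 7.99 with EV, a rise of 0.96 (SE 0.08, adjusted p = 4.0e-05). TRIM26, which acts in interferon signalling, had 7.75, 7.63 and 7.78 against 8.52, 8.63 and 8.57, a rise of 0.85 (SE 0.07, adjusted p = 3.6e-05), and its second cluster also rose by 0.85. TRIM38, a regulator of innate immune signalling, was dim, with 3.54, 3.43 and 3.24 against 4.05, 4.23 and 3.88. Its rise of 0.65 (SE 0.11, adjusted p = 0.00215) was 1.57-fold, and without control siRNA replicate 3 or without EV replicate 2 it was no longer called with fold.

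Outside that list, TRIM52 and TRIM69 rose with fold. TRIM52 had 7.06, 6.68 and 6.8 with control siRNA and 7.99, 8.1 and 7.93 with EV, a rise of 1.16 (SE 0.10, adjusted p = 6.4e-05). Its second cluster had a change of 0.59. TRIM69, which associates with microtubules, was dim, with 3.96, 3.84 and 3.83 against 4.44, 4.54 and 4.54, a rise of 0.63 (SE 0.07, adjusted p = 1.8e-04). Neither pair of groups overlapped. The other 7 that rose changed by less, between 0.21 for TRIM41 and 0.43 for TRIM67, a neuronal member of class C-I (adjusted p = 0.00457).

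**Figure D1:**
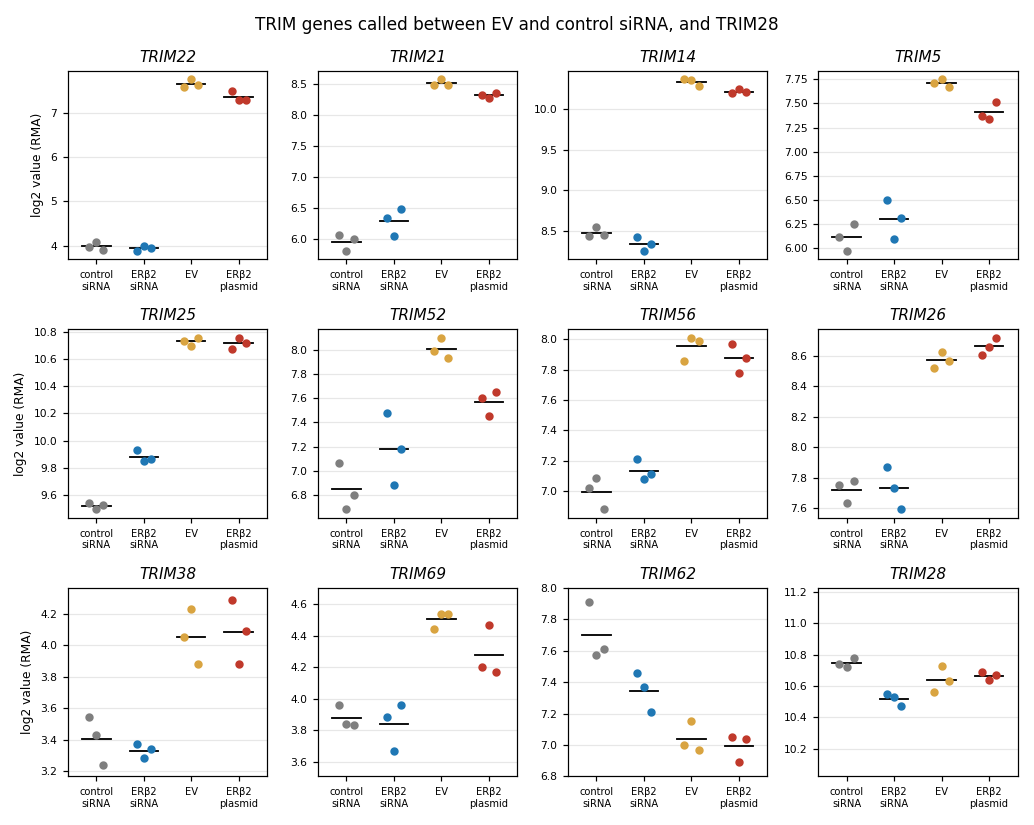
Log2 values of 12 TRIM genes on each of the 12 arrays, 3 per group (points), with the group means (bars). The y axes differ between genes, and the 11 genes called with fold between EV and control siRNA are shown with TRIM28. The antiviral genes are higher on all 6 plasmid-transfected arrays than on any siRNA array, though TRIM38 stays dim.

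Related genes were read in the same comparison, where 19.2% of all genes rose and 22.4% fell. The counts of these lists were not tested against the rest, and the lists were chosen with earlier results known. All 33 listed interferon-stimulated genes rose with fold (background 5.57%), with a median of 4.18 and a range from 1.05 to 6.81. IFI44L and MX1 led at 6.81 and 6.48. Among 8 family members with other symbols, 3 rose and 1 fell. PML, the scaffold of nuclear bodies, went from a mean of 7.61 to 8.87 (change 1.26, SE 0.09, adjusted p = 2.2e-05). Among 23 partners and substrates of TRIM proteins, 5 rose and 5 fell, near the shares of all genes. RIGI, the RNA sensor that TRIM25 modifies, rose by 3.97 (SE 0.07, adjusted p = 2.0e-09), and STING1, a DNA sensing adaptor, by 1.18. Of 24 E2 ubiquitin-conjugating enzymes, which pass ubiquitin to RING ligases, 7 rose and 9 fell, and UBE2L6, an E2 for the ubiquitin-like ISG15, rose by 2.96 (adjusted p = 1.3e-07). The leukocyte markers PTPRC and CD3E stayed dim, with group means from 3.04 to 3.5 over the 4 groups, while CD14 went from 5.71 with control siRNA to 6.19 with ERβ2 siRNA and 6.65 with EV, and its part in the changes of the TRIM genes was not tested.

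The TRIM genes that fell with EV came from several classes, C-IV included. TRIM62, a regulator of the shape of mammary epithelial acini, had 7.91, 7.57 and 7.61 with control siRNA and 7, 7.15 and 6.97 with EV. It fell by 0.66 (SE 0.10, adjusted p = 0.00139) to 0.634 of the control level, and without control siRNA replicate 1 it was no longer called with fold. TRIM2, an NHL-repeat ligase known for neurofilament turnover, had 8, 7.81 and 7.97 against 7.41, 7.4 and 7.37 and fell by 0.53 (SE 0.07, adjusted p = 5.7e-04). TRIM71, an NHL-repeat RNA-binding protein of embryonic cells, fell by 0.50 (adjusted p = 0.00375). Of the 4 genes of class C-VII, 3 fell and none rose, where 22.4% of all genes fell and 19.2% rose. TRIM24, a nuclear receptor cofactor of class C-VI, had 8.52, 8.37 and 8.33 against 8.08, 8.14 and 8.04 and fell by 0.32 (SE 0.07, adjusted p = 0.00928). TRIM28 and TRIM33 of the same class did not pass, at -0.11 and 0.03. Without 1 of the 6 arrays, 9 of the 28 TRIM genes that rose or fell no longer passed in at least 1 case: TRIM15, TRIM31, TRIM32, TRIM36, TRIM41, TRIM42, TRIM48, TRIM61 and TRIM63. Of these, 7, 4 and 6 were lost without control siRNA replicates 1, 2 and 3 in turn, and 5, 6 and 5 without EV replicates 1, 2 and 3.

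Promoter windows were given for 42 of the 54 TRIM genes. Of these genes, 8 held the element (19.0%), against 1195 of 27305 genes (4.38%). Some genes had several windows, such as TRIM2 with 6, and a match in any of them counted. Of the 8 genes with a match, 6 rose with EV, 5 of them with fold, TRIM2 fell and TRIM44 did not pass. Their median change was 0.74. Over all genes, 19.2% rose, 5.57% rose with fold and 22.4% fell. The share of all genes with a match that rose was not computed, and the counts by match were not tested. Of the 34 without a match, 9 rose and 9 fell, with a median of 0.02, and TRIM25, TRIM52, TRIM56 and TRIM38 were the 4 that rose with fold. The matches lay close before the start in TRIM14 (from 26 to 17 bases before it), TRIM5 (27 to 18), TRIM44 (35 to 26), TRIM69 (62 to 53) and TRIM16 (80 to 71). In TRIM26 they began 194 and 188 bases before the start, in TRIM2 the match began 217 bases before it, and in TRIM21 they lay from position 18 to position 33 after it. TRIM44, a member without a RING finger, held its match within 35 bases of its start, slightly farther than TRIM5 and TRIM14, and had values of 7.58, 7.44 and 7.52 with control siRNA against 7.39, 7.6 and 7.37 with EV. Its groups overlapped, and the change was -0.06 (adjusted p = 0.583). A match is a description of letters, and no binding was measured. The estrogen response element was searched as GGTCA and TGACC with any 3 bases between them, which reads the same on both strands. It was in no window of the 42 TRIM genes (0 of 42) and in 20 of 27305 genes (0.0732%). TRIM4, TRIM8, TRIM11, TRIM22, TRIM24, TRIM27, TRIM28, TRIM29, TRIM35, TRIM45, TRIM55 and TRIM60 were not in the promoter table.

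**Figure D2:**
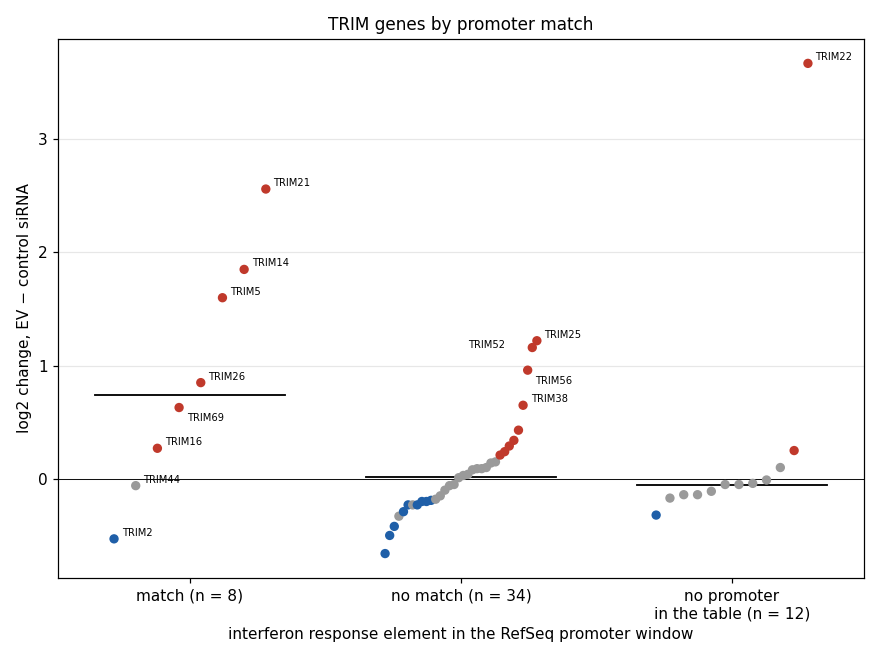
Log2 change from control siRNA to EV (y axis) for the 54 TRIM genes, grouped by a match to the interferon-stimulated response element in any promoter window. Points are genes (red rose, blue fell, grey did not pass), horizontal black bars are medians, and the 8 genes with a match have a median of 0.74 against 0.02 for the 34 without one.

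ERβ2 siRNA against control siRNA asked which genes respond to loss of ERβ2. TRIM2 was higher by over 1.5-fold, TRIM9 and TRIM25 were higher by less, and TRIM41, TRIM71, TRIM28 and the dim TRIM72 were lower. In all, 6 TRIM genes rose (11.1%) and 9 fell (16.7%), where the background was 18.3% higher and 17.5% lower. The split depended on the scaling, with 7 that rose and 6 that fell after cyclic loess and 8 and 5 with each array centred on its median. Over both directions the count was 15 of 54 (27.8%), and the background was 35.8%. Only TRIM2 was called with fold, 1 of 54 (1.85%), with a background of 3.25% higher, 1.26% lower and 4.52% in all. The groups did not overlap for 16 TRIM genes (29.6%, background 42.4%). The median change was -0.04 for the family and -0.03 for all genes, and the family ranged from -0.41 to 0.63.

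TRIM2 had log2 values of 8, 7.81 and 7.97 with control siRNA and of 8.54, 8.58 and 8.56 with ERβ2 siRNA. All 3 siRNA arrays lay above all control arrays, and the rise was 0.63 (SE 0.07, 95% CI 0.48 to 0.78, 1.55-fold, adjusted p = 2.2e-04). Without control siRNA replicate 2 the change of TRIM2 still passed but was no longer 1.5-fold. TRIM9, a neuronal ligase of netrin signalling, had 5.53, 5.64 and 5.73 against 6.13, 5.93 and 5.99 and rose by 0.38 (SE 0.08, adjusted p = 0.00641). TRIM46, which organises microtubules of the axon and also belongs to class C-I, rose by 0.21 (adjusted p = 0.0912). TRIM66, a testis-linked cofactor without a RING finger, was dim, with 4.68, 4.59 and 4.72 against 4.95, 4.89 and 4.78, and rose by 0.21 (adjusted p = 0.0465).

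Of the 8 antiviral TRIM genes, 2 rose after ERβ2 siRNA and none fell, where 18.3% of all genes rose and 17.5% fell. TRIM25 had 9.54, 9.49 and 9.52 with control siRNA and 9.93, 9.85 and 9.86 with ERβ2 siRNA, a rise of 0.36 (SE 0.05, 1.29-fold, adjusted p = 0.00151) without overlap. TRIM21 had 6.07, 5.81 and 6 against 6.34, 6.05 and 6.48. It rose by 0.33 (SE 0.11, adjusted p = 0.0631), but its groups overlapped. TRIM22 was at its low level in both groups, with 3.88, 3.99 and 3.94 after ERβ2 siRNA and a change of -0.05 (adjusted p = 0.614). Of the 33 interferon-stimulated genes, 5 rose and 6 fell, with a median of -0.03, beside the same shares of all genes.

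The genes that fell lay in several classes. TRIM41, a ligase of class C-IV, had 6.32, 6.31 and 6.43 with control siRNA and 6.07, 5.79 and 5.97 with ERβ2 siRNA and fell by 0.41 (SE 0.08, adjusted p = 0.00594). TRIM71 had 5.6, 5.9 and 5.66 against 5.3, 5.36 and 5.28 and also fell by 0.41 (SE 0.08, adjusted p = 0.00709). TRIM72, a membrane repair protein of striated muscle, had 4.94, 5.05 and 5.33 against 4.78, 4.75 and 4.63 and fell by 0.39 (SE 0.10, adjusted p = 0.0207). It was dim and did not pass by the methods' t-test. The groups did not overlap for TRIM41, TRIM71 or TRIM72. TRIM62 fell by 0.35 (SE 0.10, adjusted p = 0.0349) from 7.91, 7.57 and 7.61 to 7.46, 7.37 and 7.21. Among the chromatin cofactors, TRIM28, the corepressor of KRAB zinc finger proteins, had 10.74, 10.72 and 10.78 against 10.55, 10.53 and 10.47. It fell by 0.23 (SE 0.05, adjusted p = 0.0141), to 0.853 of the control level. TRIM33, a cofactor of SMAD signalling, had 10.13, 10.15 and 10.17 against 9.95, 10.06 and 10.02 and fell by 0.14 (SE 0.06, adjusted p = 0.0965). TRIM24, the remaining gene of class C-VI, had a change of -0.00. CBX5, a heterochromatin protein that works with TRIM28, fell by 0.59 (adjusted p = 1.2e-04).

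The remaining changes were small. TRIM37, a centrosome and peroxisome ligase, fell by 0.22 (adjusted p = 0.0784), TRIM60 by 0.19 (adjusted p = 0.044) and TRIM48 by 0.18 (adjusted p = 0.0998). TRIM60 and TRIM48 were dim. Leaving out 1 array at a time, 7 of the 15 genes passed every time. TRIM62 was lost without ERβ2 siRNA replicate 3, TRIM60 without ERβ2 siRNA replicate 1, and TRIM66 without replicate 2 of control siRNA or replicates 1 or 2 of ERβ2 siRNA. TRIM21 was lost without replicates 2 or 3 of control siRNA or 1 or 3 of ERβ2 siRNA, TRIM46 without replicates 1 or 2 of control siRNA or 1 or 3 of ERβ2 siRNA, and TRIM48 without replicates 1 or 3 of control siRNA or 1 or 2 of ERβ2 siRNA. TRIM33 was lost without any of the 6 arrays, and TRIM37 without any except ERβ2 siRNA replicate 1. The count fell to 10 without control siRNA replicate 2, to 9 without ERβ2 siRNA replicate 1 and to 9 by the methods' t-test, and in each of these 3 rose in place of 6. Among the 23 partners, 3 rose and 6 fell, and among the 24 E2 enzymes 5 rose and 10 fell. Of all genes 18.3% rose and 17.5% fell, and these list counts were not tested against the rest. The E2 enzyme UBE2Q2 fell by 1.36 (adjusted p = 9.7e-06).

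**Figure D3:**
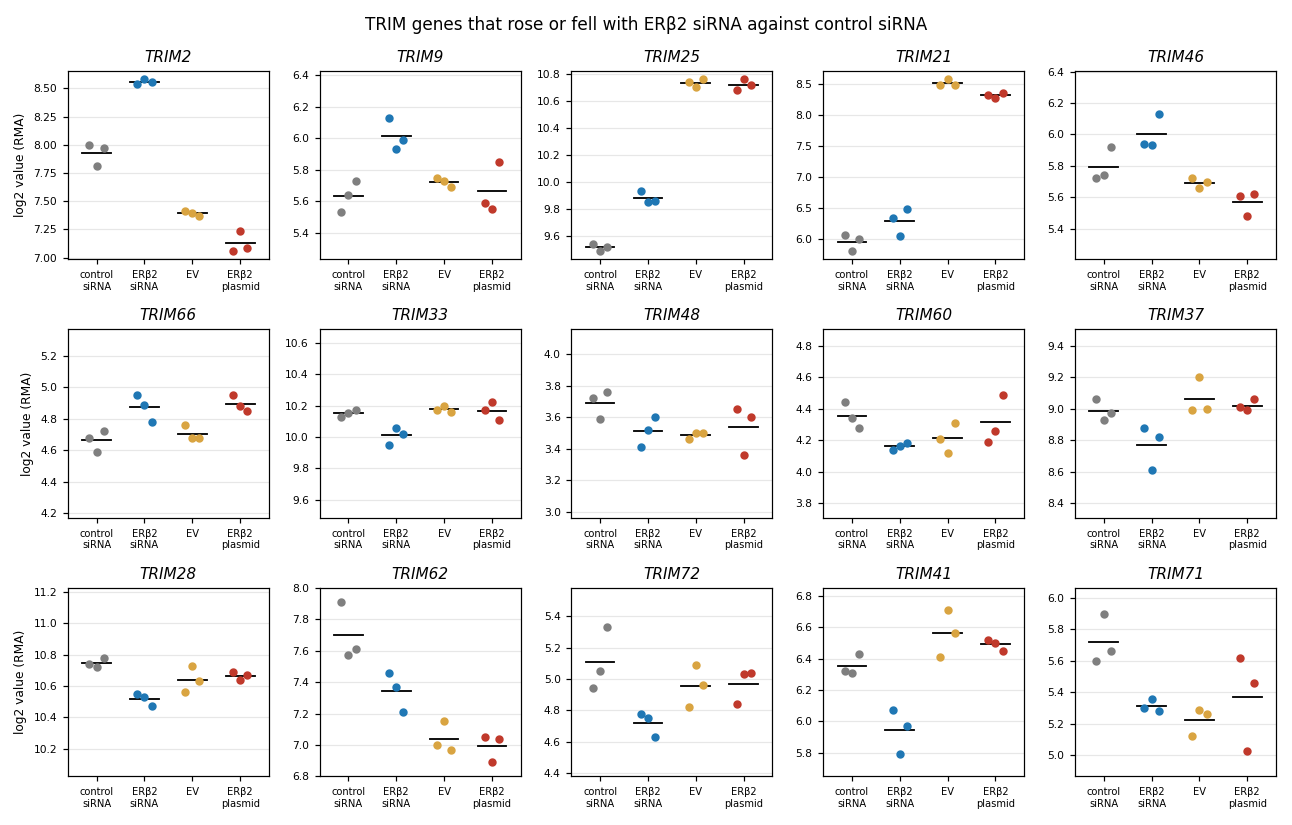
Log2 values of the 15 TRIM genes that rose or fell with ERβ2 siRNA, on each of the 12 arrays, 3 per group (points), with the group means (bars) and y axes that differ between genes. In the panel of TRIM2 the 3 ERβ2 siRNA arrays, from 8.54 to 8.58, lie above the arrays of the other groups.

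The ERβ2 plasmid against EV asked the reverse question. No TRIM gene passed, 0 of 54 by limma, where the background was 2 of 17958 genes higher (0.0111%) and none lower (0%). At an unadjusted p under 0.05 there were 9 TRIM genes (16.7%), against 7.02% of all genes. The methods' t-test with adjustment also gave 0, and limma with an intensity trend and a robust prior gave 1, TRIM52. The median change was -0.02 and the range from -0.44 to 0.36. The 3 smallest p-values belonged to TRIM52, TRIM5 and TRIM2, all lower with the plasmid. TRIM52 had 7.99, 8.1 and 7.93 with EV and 7.6, 7.45 and 7.65 with the plasmid, a difference of -0.44 (SE 0.07, 95% CI -0.61 to -0.27, adjusted p = 0.282). TRIM5 had 7.37, 7.34 and 7.52 with the plasmid, a difference of -0.30 (SE 0.06, adjusted p = 0.449). TRIM2 had 7.06, 7.24 and 7.09, a difference of -0.26 (SE 0.06, adjusted p = 0.492).

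These 3 genes were among 11 whose plasmid and EV arrays did not overlap (20.4%, background 12%). TRIM21, TRIM22 and TRIM14 were among them too, at -0.20, -0.30 and -0.12. With the plasmid the 8 antiviral genes stayed above their values in both siRNA groups, though TRIM38 was dim. TRIM22 had 7.5, 7.29 and 7.29, and the median change over the 8 was -0.10. TRIM25 had a change of -0.01 and TRIM26 of 0.09. TRIM61, TRIM11 and TRIM66 lay on the other side, at 0.36, 0.20 and 0.19, and TRIM66 had also risen after ERβ2 siRNA, by 0.21.

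**Figure D4:**
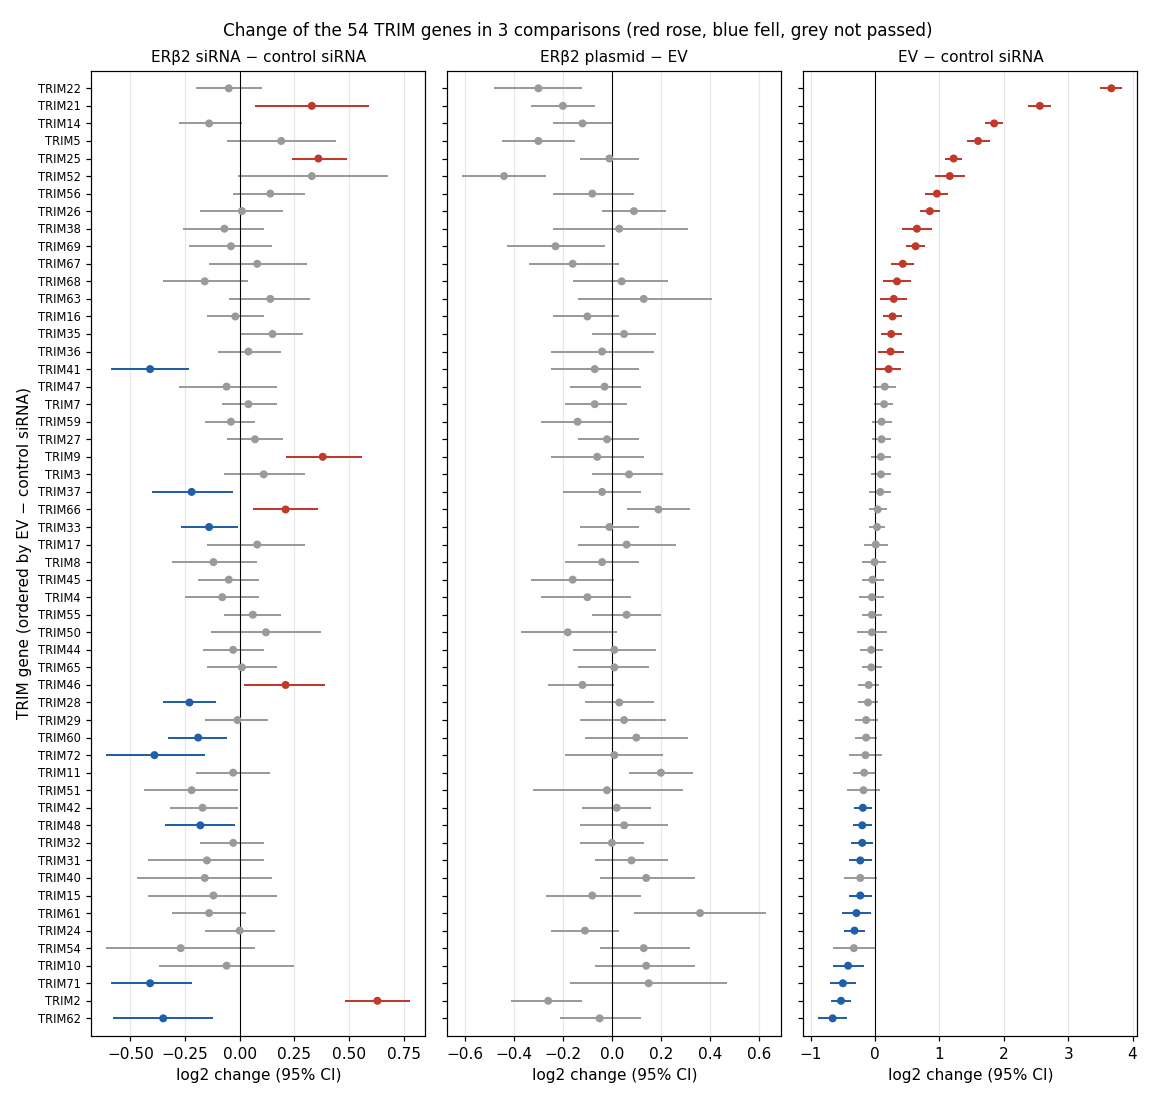
Log2 changes of the 54 TRIM genes in the comparisons of ERβ2 siRNA with control siRNA, ERβ2 plasmid with EV and EV with control siRNA. Each point is a gene with its 95% confidence interval (red rose, blue fell, grey did not pass), the x scales differ between panels, and the changes run from -0.41 to 0.63, from -0.44 to 0.36 and from -0.66 to 3.67.

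The knockdown effect was set against the plasmid effect in 1 model of all 12 arrays, as the difference between both changes. Both effects also differ in time after transfection, nucleic acid and reagent, which cannot be told apart from a difference in response to ERβ2. Their control levels differ as well, as TRIM21 had means of 5.96 with control siRNA and 8.52 with EV, and TRIM5 of 6.11 and 7.71. The difference passed with a higher knockdown effect in 7 TRIM genes and a lower one in 6 (13 of 54, 24.1%), where the background was 15% higher and 11.3% lower. With each array centred on its median, 7 were higher and 3 lower. With a difference of at least 1.5-fold there were 2 (background 4.04% higher and 5.51% in either direction), TRIM2 and TRIM52. For TRIM2 the difference was 0.90 (SE 0.09, 95% CI 0.70 to 1.09, adjusted p = 2.1e-05), and the 4 group means were 7.93 with control siRNA, 8.56 with ERβ2 siRNA, 7.39 with EV and 7.13 with the plasmid. For TRIM52 it was 0.77 (SE 0.19, adjusted p = 0.011), from means of 6.85, 7.18, 8.01 and 7.57. The knockdown change of TRIM52 by itself did not pass, at 0.33 (adjusted p = 0.137). TRIM21, TRIM5 and TRIM25 followed at 0.53, 0.49 and 0.38, and TRIM9 and TRIM46 of class C-I at 0.44 and 0.33. The 6 lower genes were TRIM71 at -0.55, TRIM61 at -0.50, TRIM72 at -0.40, TRIM41 at -0.34, TRIM60 at -0.29 and TRIM28 at -0.26. Of these 13, TRIM71 was lost without control siRNA replicate 2, and TRIM41, TRIM60 and TRIM72 without several of the arrays. The comparison of EV with control siRNA shares its arrays with both other comparisons, so their changes are not independent of each other.

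By class, the SPRY genes of class C-IV are the most numerous, 25 of the 54. With EV, 10 of the 25 rose and 4 fell, where 19.2% of all genes rose and 22.4% fell. After ERβ2 siRNA 2 of the 25 rose and 5 fell, where the shares of all genes were 18.3% and 17.5%, and these counts were not tested against the rest. The 4 genes of class C-I had 2 that rose and none that fell in each of these comparisons, TRIM36 and TRIM67 with EV and TRIM9 and TRIM46 after ERβ2 siRNA. Among 5 genes without a RING finger, TRIM14 and TRIM16 rose with EV, and among 8 genes of cytoskeleton and muscle, TRIM36, TRIM63 and TRIM67 rose. TRIM59, the member with a transmembrane segment, was dim on every array and passed in neither comparison, at 0.10 (adjusted p = 0.26) with EV and -0.04 (adjusted p = 0.561) after ERβ2 siRNA. In all, 18 of the 54 TRIM genes passed in no comparison, and the same share over all genes was not computed. Of these 18, TRIM3, TRIM4, TRIM8, TRIM11, TRIM17, TRIM27, TRIM44, TRIM45, TRIM47 and TRIM65 had means over 5.

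Several members are neighbours in the genome, within 10 protein-coding genes of each other. TRIM5 and TRIM22 on chromosome 11 both rose with EV, as did TRIM21 and TRIM68, which rose by 0.34 (adjusted p = 0.0293). On chromosome 6, TRIM26 rose while TRIM10, TRIM15 and TRIM31 fell, by 0.42, 0.23 and 0.23. Those that fell were dim, with means of 4.02, 4.77 and 3.81. In a limma fit over all clusters TRIM15 and TRIM31 did not pass (adjusted p = 0.106 and 0.111), nor did the other clusters of TRIM10. TRIM40, in the same stretch, did not pass. On chromosome 5, TRIM52 rose by 1.16 and TRIM41 by 0.21, and TRIM7 beside them did not pass. Of the other neighbours, TRIM61 fell and TRIM60 did not pass, and neither gene passed in the pairs TRIM11 with TRIM17 and TRIM47 with TRIM65.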

How the data were processed

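Total RNA of the 12 samples was measured on arrays of the Human Gene 1.1 ST type. From the scans the authors computed log2 values per transcript cluster by RMA, which corrects for background and normalizes between arrays, in the software Affymetrix Expression Console. The software version is not given in the labels or methods, and the base of the logarithm was taken as 2. RMA shrinks changes of dim clusters. Symbols came from the probe annotation: of 33297 clusters, 19181 had 1 symbol and gave 17958 genes. Precision is limited by 3 arrays per group.

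Groups were compared with limma 3.58.1 (R 4.3.3) over all 17958 genes with Benjamini-Hochberg adjustment, each pair in its own fit and the difference of effects in 1 fit of 12 arrays; the code was tested on simulated data. The alternatives were another normalization, another choice of cluster, dim genes left out, another prior, the methods' t-test, a stricter threshold, 1 fit over all arrays, a block for the replicate number, and dropping 1 array at a time. Genes were named when called with fold, among the 6 largest changes that passed (or the 3 smallest p-values where none did), among a short list of well-studied members, or against the direction of their class. Members and lists were chosen with earlier results of these data known. Protein sequences were not used here.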

Additional observations from a re-analysis of the deposited data

Results flagged for a closer look

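The effect of ERβ2 siRNA and that of the ERβ2 plasmid differed for TRIM2 and TRIM52 by over 1.5-fold. Both effects also differ in time, nucleic acid and reagent, which cannot be told apart. For TRIM2 the knockdown effect minus the plasmid effect was 0.90, with a rise of 0.63 after ERβ2 siRNA and a change of -0.26 with the plasmid that did not pass (adjusted p = 0.492, limma). For TRIM52 the difference was 0.77, with changes of 0.33 and -0.44, neither of which passed by itself, and with the TRIM52 cluster of the lowest mean the adjusted p of the difference was 0.185.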

How the results depend on the processing

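With the cluster of the lowest mean, TRIM22 differed by -0.06 between EV and control siRNA (adjusted p = 0.663, limma), and the TRIM genes whose knockdown and plasmid effects differed with fold went from 2 to 1. The methods' t-test gave 9 TRIM genes after ERβ2 siRNA in place of 15, and an intensity trend with a robust prior gave 1 with the plasmid in place of 0 (TRIM52, adjusted p = 0.0409). Leaving out 1 array gave 9 to 16 TRIM genes after ERβ2 siRNA (0 to 1 with fold), 0 to 0 with the plasmid, 22 to 25 for EV against control siRNA (10 to 12 with fold) and 10 to 14 for the difference of effects (2 to 4 with fold). All 8 listed antiviral genes were higher with EV without any single array. The replicate numbers gave no clear pairing of the samples. Same-numbered deviations correlated at 0.22, 0.14 and 0.01 for the siRNA groups, where the same number was the best match for replicates 1 and 2. They correlated at -0.14, -0.09 and 0.10 for the plasmid groups, and at -0.24, -0.16 and 0.12 for EV and control siRNA. With the replicate number as a block, 18 TRIM genes passed after ERβ2 siRNA, 0 with the plasmid and 27 for EV against control siRNA. Over all genes after ERβ2 siRNA, 6891 passed with the block in place of 6429. Other alternatives kept each total within 1.5 times, but not each direction. With EV, the 11 that fell became 7 with all clusters, 5 without dim genes, 6 by the methods' t-test, 7 at an adjusted p under 0.05 and 7 without control siRNA replicate 3. After ERβ2 siRNA, the 9 that fell became 5 with each array centred on its median. In the difference of effects, the 6 that were lower became 3 with all clusters, with centring, at an adjusted p under 0.05 and without EV replicate 1. Dim genes, 20 of the 54, have little signal over background, so small changes there could be missed.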
